A study of Rattus norvegicus with 4 samples.

Results

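Cyclic AMP is made by adenylate cyclases, broken down by phosphodiesterases and read in the nucleus by CREB family factors. The genes described here are 10 of that chain: Gnal, Adcy4, Adcy6, Adcy8, Pde4a, Pde4b, Pde4d, Pde1c, Crem and Creb1. Their members are all probe sets annotated with 1 of these symbols alone. These were 18 of the 7006 probe sets that carried 1 gene symbol, from 10 of 4736 genes. Every probe set is given separately, and none was removed for a low value. Crem and Pde4b had 4 probe sets each, Pde4a and Pde4d had 2 each, and the other 6 genes had 1 each.

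As background, receptors coupled to the stimulatory G proteins Gs and Golf activate adenylate cyclases at the cell membrane. The cyclic AMP that these cyclases make activates protein kinase A. The kinase phosphorylates CREB1 and its relative CREM, which bind the cyclic AMP response element of target genes. In the testis, follicle-stimulating hormone acts through cyclic AMP in Sertoli cells and luteinising hormone does so in Leydig cells, while the activator forms of CREM switch on genes of haploid germ cells. An internal promoter of Crem gives the short repressor ICER, and phosphodiesterases of the Pde4 family end the signal.

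The animals were rats that went onto a diet lacking vitamin A at 20 days of age and stayed on it for 9 weeks. The VAD group received no retinol (time 0), and the other 3 groups were deficient animals sampled 4, 8 and 24 h after retinol, the alcohol form of vitamin A. The sources used here do not give the strain or the retinol dose. Whole testis RNA was hybridised to the Affymetrix Rat Genome U34 array, on which a transcript is read by a set of short probes made from a database sequence. Each group has 1 deposited sample, called an array here; the sources used here do not say how many animals or chips stand behind it. No difference below could therefore be tested, and each is a difference between arrays.

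The deposited value of a probe set is a linear ratio whose reference is not stated. In the VAD array 59.9% of all 8799 ratios lay within 10% of 1. A change is the difference in log2 ratio between 2 arrays, so 1 is a 2-fold change. Ratios carry no signal level, so levels of different genes could not be compared and the tissue label could not be checked by marker levels. No probe set of the cell type marker lists was listed at 0. In whole tissue, fewer cells of a type and less RNA per cell cannot be told apart.

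The spread came from 1075 pairs of probe sets for 1 gene whose database sequences differ. It is given as the SD of the change of 1 probe set, called the probe set noise. Against VAD it came to 0.43 (4 h), 0.52 (8 h) and 0.57 (24 h). It was 0.33 for 8 h against 4 h, 0.32 for 24 h against 8 h and 0.38 for 24 h against 4 h. The median change of all 7006 probe sets was -0.09, -0.11 and -0.11 at 4, 8 and 24 h against VAD. Scaling the arrays on the bacterial hybridisation spike-ins would raise every change against VAD by 0.55, 0.50 and 0.62, and the median of all probe sets to 0.46, 0.39 and 0.51. The sign of a smaller change against VAD holds for the deposited values only. Among the 4, 8 and 24 h arrays that scaling moved changes by -0.05 to 0.12. For 3 control transcripts read at both ends, the mean 5′ minus 3′ change against VAD was 0.71, 1.09 and 1.01, and its part in the results was not tested.

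At 4 h, 1 of the 18 probe sets was at least 2-fold higher than VAD (2.21% of all probe sets were) and 1 was at least 2-fold lower (1.58% of all). These were the Gnal probe set and 1 Pde4b probe set. At 8 h, Gnal was again higher (1 of 18, against 4.04% of all), and 3 were lower (2.53% of all), 1 each of Pde4b, Pde4d and Crem. At 24 h no probe set was at least 2-fold higher (4.68% of all) and 2 were lower (3.41% of all), those of Adcy4 and 1 of Crem.

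At a threshold of 1.5-fold the counts at 4 h were 2 higher (8.14% of all) and 3 lower (8.02% of all). At 8 h they were 2 higher (10.4% of all) and 5 lower (14.0% of all). At 24 h they were 2 higher (11.6% of all) and 3 lower (15.6% of all). The median of the 18 probe sets was -0.09, 0.02 and 0.02 at the 3 times, with 9, 10 and 10 of 18 above 0. Of all probe sets 40.57%, 40.12% and 41.44% were above 0. Beside the -0.09, -0.11 and -0.11 of all probe sets, the chain did not lie far to either side as a whole. The 2-fold differences lay in single probe sets, which for Pde4b, Pde4d and Crem the gene's other probe sets did not share.

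Between retinol arrays, no probe set was at least 2-fold higher at 8 h than at 4 h (0.885% of all) and 2 were lower (1.04% of all), 1 each of Pde4d and Crem. At 24 h against 8 h, 1 was higher (0.899% of all), from Pde4d, and 1 lower (0.856% of all), that of Gnal. At 24 h against 4 h none was higher (1.47% of all) and 3 were lower (1.53% of all), those of Adcy4, Gnal and 1 of Crem. The median of the 18 was -0.24 for 24 h against 4 h and -0.02 for all probe sets. Of the 18, 11 were below 0 and 7 above, beside 47.09% of all probe sets above 0. In either direction, 13 of the 18 changes from 4 h to 24 h exceeded the probe set noise, beside 26.11% of all probe sets. For 8 h against 4 h and for 24 h against 8 h, 8 of 18 did, beside 23.91% and 21.77%. Probe sets of 1 gene are not independent, and the members were chosen with earlier results of these data known.

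**Figure D1:**
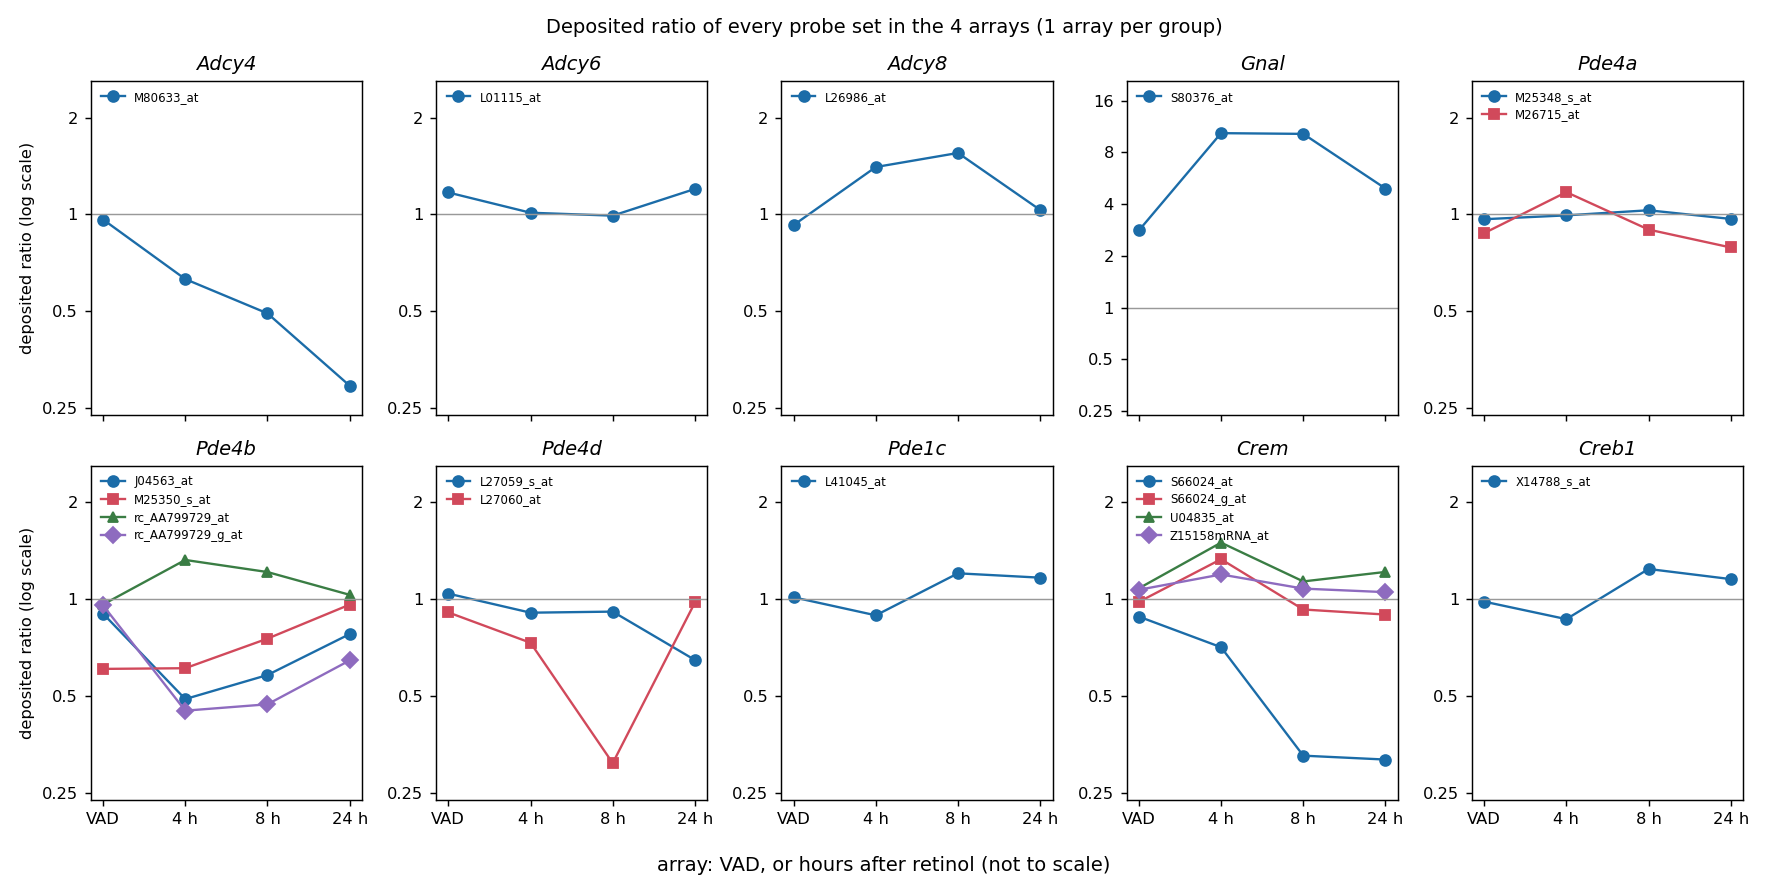
Deposited ratio (log axis) of each of the 18 probe sets in the VAD, 4, 8 and 24 h arrays, 1 panel per gene and 1 point per array; Gnal has its own axis range. Gnal peaked at 10.35 and 10.25 at 4 and 8 h, Adcy4 was lower in each later array, and the probe sets of Pde4b, Pde4d and Crem did not run together.

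Gnal encodes the alpha subunit of Golf, which stimulates adenylate cyclase and is best known in olfactory neurons. Its probe set, S80376_at, had a ratio of 2.81 in the VAD array, 10.35 at 4 h, 10.25 at 8 h and 4.93 at 24 h. The 4 h and 8 h arrays were the high ones and the VAD array the low one. The change against VAD was 1.88 at 4 h (3.68-fold), 1.87 at 8 h (3.65-fold) and 0.81 at 24 h (1.75-fold). These are 4.42, 3.57 and 1.41 times the probe set noise. At 4 h it was the 8th highest change of all 7006 probe sets and at 8 h the 34th. The step from 8 h to 24 h was -1.06, a 2.08-fold lower ratio. The ratio of Gnal in the VAD array was itself the 3rd highest of all, so in every array it stood above the unstated reference. With 1 as reference in place of VAD, the changes of Gnal at 4 h and 8 h would be 3.37 and 3.36. The probe set noise is a spread over pairs from many genes. Gnal, with 1 probe set, has no such pair, so its own noise is not known.

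The probe sets of other genes nearest to Gnal across the 4 arrays, by Euclidean distance in log2 ratio, were those of Laptm4a (0.96), Oxsr1 (1.49) and A2m (1.68). Laptm4a, a lysosomal membrane protein gene, had ratios of 2.06, 7.20, 6.46 and 4.73 in the VAD, 4, 8 and 24 h arrays. Oxsr1, a stress-responsive kinase gene, and A2m, a protease inhibitor gene, were highest at 24 h, at 8.61 and 12.6. No other probe set lay closer than 0.96 to Gnal.

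The other G protein subunits, taken from a fixed list, held no probe set as high as that of Gnal. Of 20 listed genes 15 were measured, by 28 probe sets. None was at least 2-fold higher at any time against VAD (2.21%, 4.04% and 4.68% of all probe sets were). Their medians of -0.26, -0.32 and -0.23 lay below the -0.09, -0.11 and -0.11 of all probe sets. The 1 probe set past 2-fold lower at 4 h (1.58% of all) and at 8 h (2.53%) was M95780_at of the gamma subunit gene Gng5. It was at -1.04 and -1.22, and at -0.83 at 24 h. The other Gng5 probe set, rc_AI232477_s_at, was at -0.34, -0.65 and -0.65. Gnas, the gene of Gs alpha, had 4 probe sets with changes between -0.54 and 0.16 over the 3 times.

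The 3 adenylate cyclases went different ways. Adcy4 encodes a membrane cyclase that is insensitive to calcium and is stimulated by G protein beta-gamma subunits. Its probe set M80633_at had a ratio of 0.964 in the VAD array, 0.629 at 4 h, 0.492 at 8 h and 0.293 at 24 h. Each later array was lower than the one before. The change against VAD was -0.62, -0.97 and -1.72, the last being 3.29-fold lower and the 24th lowest of all probe sets. In units of the probe set noise these are 1.45, 1.86 and 2.99. The step from 8 h to 24 h (-0.75) was larger than that from 4 h to 8 h (-0.35).

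The nearest probe sets to Adcy4 were those of Cyp17a1 (distance 0.20), Txnl1 (0.24) and Ppp1r16b (0.27). Cyp17a1, a steroidogenic enzyme gene of Leydig cells, had ratios of 1.01, 0.615, 0.526 and 0.326 in the VAD, 4, 8 and 24 h arrays. Among Leydig cell markers, 20 probe sets of 9 genes had median changes of 0.21, 0.11 and -0.29. At 24 h they ranged from -1.95 (Cyp11a1) to 1.63 (Nr5a1), with 5 at least 2-fold lower (3.41% of all probe sets) and 3 at least 2-fold higher (4.68%), and spike-in scaling would turn the median at 24 h to 0.33. In the VAD array their ratios lay between 0.763 and 1.49, and at 24 h between 0.313 and 3.34. The 5 endothelial marker probe sets, of 4 genes, had medians of -0.28, 0.05 and 0.17 and ranged from -1.35 to 0.78 at 24 h. The part of either cell type in the Adcy4 values was not tested.

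Adcy6, a cyclase inhibited by calcium, was flat. L01115_at had ratios of 1.17, 1.01, 0.991 and 1.2 in the VAD, 4, 8 and 24 h arrays. Its changes against VAD, -0.21, -0.24 and 0.04, were all within the probe set noise.

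Adcy8, a cyclase stimulated by calcium and calmodulin, was higher in the 4 h and 8 h arrays than in the others. L26986_at had ratios of 0.926, 1.40, 1.55 and 1.03. The changes against VAD were 0.60, 0.75 and 0.16, none of them 2-fold. The step from 8 h to 24 h was -0.59. Gnal was also high at 4 h and 8 h, with the larger changes given above.

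Of 7 other adenylate cyclase genes 4 were measured, by 6 probe sets, with medians of -0.13, -0.18 and -0.18. Adcy10, the soluble cyclase that bicarbonate activates and sperm need for motility, was the 1 past 2-fold. At 4 h and 24 h it was at least 2-fold higher, as were 2.21% and 4.68% of all probe sets. AF081941_at had ratios of 1.12, 2.26, 2.11 and 2.93, with changes of 1.01, 0.92 and 1.39. Of the others, Adcy5 had 3 probe sets between -0.76 and -0.03 at 24 h, and Adcy3 was at -0.32. At 24 h the measured cyclases thus ran from -1.72 (Adcy4) to 1.39 (Adcy10).

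**Figure D2:**
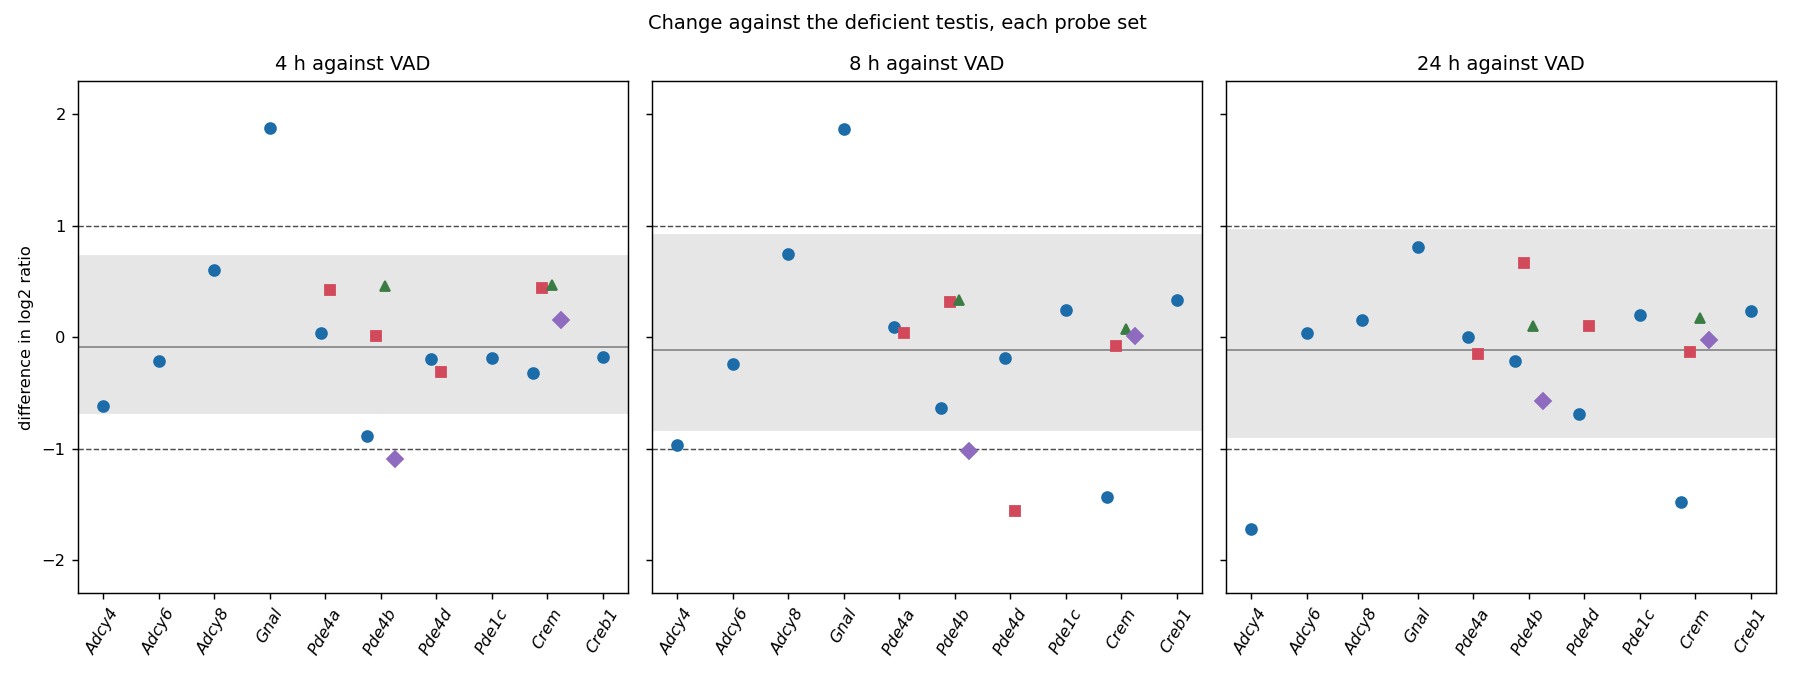
Change in log2 ratio against the VAD array for each probe set (points, with marker shapes for the probe sets of a gene) at 4, 8 and 24 h. Dashed lines mark 2-fold, the grey line the median and the shaded band the 5th to 95th percentile of all 7006 probe sets; Gnal lies above the band at 4 and 8 h, Adcy4 below it at 8 and 24 h, and Crem S66024_at below it at 8 and 24 h.

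The phosphodiesterases close the signal. Pde4a, Pde4b and Pde4d encode enzymes specific for cyclic AMP, each with several promoters and isoforms, and Pde1c encodes one that calcium and calmodulin activate and that also splits cyclic GMP. The 2 probe sets of Pde4a showed little change. M25348_s_at had ratios of 0.966, 0.993, 1.03 and 0.968, the smallest movement of the 18 probe sets. M26715_at had 0.874, 1.17, 0.897 and 0.789, highest at 4 h, with changes of 0.42, 0.04 and -0.15 against VAD.

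Pde4b was not read alike by its 4 probe sets. J04563_at had ratios of 0.902, 0.489, 0.581 and 0.779, so the 4 h array was the low one and later arrays lay closer to VAD (changes of -0.88, -0.63 and -0.21). The probe set rc_AA799729_g_at ran the same course, with 0.957, 0.450, 0.471 and 0.645 and changes of -1.09, -1.02 and -0.57. The 4 h value was 2.56 times the probe set noise.

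The other Pde4b probe sets did not show that dip. The probe set rc_AA799729_at, made from the same database sequence as rc_AA799729_g_at, had ratios of 0.963, 1.32, 1.22 and 1.03 and changes of 0.46, 0.34 and 0.10. M25350_s_at had 0.607, 0.610, 0.754 and 0.962, with changes of 0.01, 0.31 and 0.66, and its VAD ratio was the 64th lowest of all. At each time 2 of the 4 were above VAD and 2 below, and the mean of the 4 was -0.38, -0.25 and -0.0041.

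The disagreement within 1 sequence was wide at 4 h and 8 h and less so at 24 h. At 4 h the probe sets rc_AA799729_at and rc_AA799729_g_at differed by 1.55. Among 770 such pairs from 1 sequence, the median absolute difference was 0.30, and 7 pairs, this one included, were at least as far apart. At 8 h the difference was 1.36, with 26 pairs at least as far apart, and at 24 h it was 0.67, with 165. From 4 h to 24 h, 3 of the 4 Pde4b probe sets were higher, by 0.67 (J04563_at), 0.66 (M25350_s_at) and 0.52 (rc_AA799729_g_at), and rc_AA799729_at was at -0.36. The nearest probe sets to rc_AA799729_g_at were those of Mllt3 (distance 0.20), Cyp51 (0.22) and Il7r (0.24), all lowest at 4 h.

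Pde4d, which follicle-stimulating hormone induces in Sertoli cells, also had probe sets that differed. L27060_at had ratios of 0.910, 0.732, 0.309 and 0.977, a low value in the 8 h array alone. Its changes against VAD were -0.31, -1.56 and 0.10, the 8 h value being 2.94-fold lower and the 27th lowest of all. The step from 8 h to 24 h, 1.66, was the 4th highest of all 7006. L27059_s_at had ratios of 1.04, 0.908, 0.915 and 0.647, with no such dip at 8 h (-0.19) and its lowest value at 24 h (-0.69). At 8 h the 2 probe sets, from different sequences, lay 1.37 apart, and the low value of L27060_at has no support from the other probe set of the gene.

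The nearest probe sets to L27060_at were those of Cps1 (0.42), Baat (0.42) and Bpifa2f (0.44). All 3 were lowest at 8 h, with ratios of 0.382, 0.391 and 0.294. Cps1 is a urea cycle enzyme gene and Baat a bile acid conjugation enzyme gene, both known from liver.

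Pde1c stayed within the probe set noise against VAD. L41045_at had ratios of 1.01, 0.891, 1.2 and 1.17, with changes of -0.19, 0.25 and 0.20. Its step from 4 h to 8 h was 0.43, or 1.3 times the probe set noise.

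The other phosphodiesterases were measured for 8 of 20 listed genes, by 10 probe sets. None was past 2-fold against VAD at any time. Of all probe sets 2.21%, 4.04% and 4.68% were higher and 1.58%, 2.53% and 3.41% lower. The medians were -0.12, 0.09 and 0.29 against -0.09, -0.11 and -0.11 for all probe sets. The largest changes at 24 h were those of Pde5a, Pde7a and Pde1b. Pde5a, of cyclic GMP breakdown, had probe sets at 0.92 (D89093_at) and -0.64 (U76032_s_at). Pde7a was at -0.65 and Pde1b, a relative of Pde1c, at 0.62.

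Crem is the gene in which all probe sets took the same step, from 4 h to 8 h. S66024_at had ratios of 0.883 in the VAD array, 0.709 at 4 h, 0.326 at 8 h and 0.317 at 24 h. S66024_g_at, from the same database sequence, had 0.981, 1.33, 0.929 and 0.896. U04835_at had 1.08, 1.5, 1.14 and 1.22. Z15158mRNA_at had 1.07, 1.19, 1.08 and 1.05. In all 4 the 8 h and 24 h arrays were lower than the 4 h array, and 3 of the 4 were at their highest at 4 h.

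The change from 4 h to 8 h was -1.12 for S66024_at, -0.52 for S66024_g_at, -0.40 for U04835_at and -0.15 for Z15158mRNA_at. Their mean was -0.55, and it was -0.55 again from 4 h to 24 h. The first of these is 3.35 times the probe set noise of this step and the last 0.44 times. Of 95 genes with 4 probe sets, 12 (12.63%) had all of them lower at 8 h than at 4 h, and 9 (9.47%) at 24 h than at 4 h. The 4 probe sets come from 3 sequences and share the arrays, so they are not independent. The mean 5′ minus 3′ change of the 3 control transcripts was 0.38 for 8 h against 4 h (0.22 to 0.71) and 0.30 for 24 h against 4 h, and its part in the Crem values was not tested.

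Against VAD the Crem probe sets parted. S66024_at was at -0.32, -1.44 and -1.48, which is 2.71-fold lower at 8 h and 2.79-fold lower at 24 h. S66024_g_at was at 0.44, -0.08 and -0.13. U04835_at was at 0.47, 0.07 and 0.17, and Z15158mRNA_at at 0.16, 0.01 and -0.02. The 2 S66024 probe sets differed by -1.36 at 8 h and -1.35 at 24 h, and 25 and 30 of the 770 pairs from 1 sequence were at least as far apart. The 2-fold lower value of Crem thus rests on 1 probe set of 4, and the mean of the 4 at 24 h was -0.37. The nearest probe sets to S66024_at were those of Ank3 (0.12), Slc15a1 (0.39) and Limk1 (0.42), all lowest at 24 h.

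Markers of spermatids and spermatocytes were also lower at 8 h than at 4 h, while those of spermatogonia had a median near the -0.03 of all probe sets. Of 15 spermatid marker probe sets, 2 were above 0 for 8 h against 4 h, beside 45.08% of all probe sets. Their median was -0.61, and 6 were at least 2-fold lower (1.04% of all). All 15 were lower at 24 h than at 4 h (median -0.76; 47.09% of all probe sets were above 0), 14 of them under spike-in scaling. All 9 spermatocyte marker probe sets were lower at 8 h than at 4 h (median -0.54). The 10 spermatogonium marker probe sets had medians of -0.05 for 8 h against 4 h and 0.17 for 24 h against 4 h, with 4 and 6 above 0. The median ratio of the spermatid markers was 1.06 in the VAD array, 1.58 at 4 h, 0.924 at 8 h and 0.920 at 24 h, with ratios from 0.747 to 2.09 in VAD and from 0.769 to 7.64 at 4 h. The part of germ cells in the Crem values was not tested.

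Creb1, the activator that protein kinase A phosphorylates in most tissues, went the other way from Crem between 4 h and 8 h. X14788_s_at had ratios of 0.983, 0.867, 1.24 and 1.16, lowest at 4 h. Its changes against VAD were -0.18, 0.34 and 0.23, all within the probe set noise. The step from 4 h to 8 h was 0.52, or 1.55 times the noise, and that from 4 h to 24 h was 0.41.

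**Figure D3:**
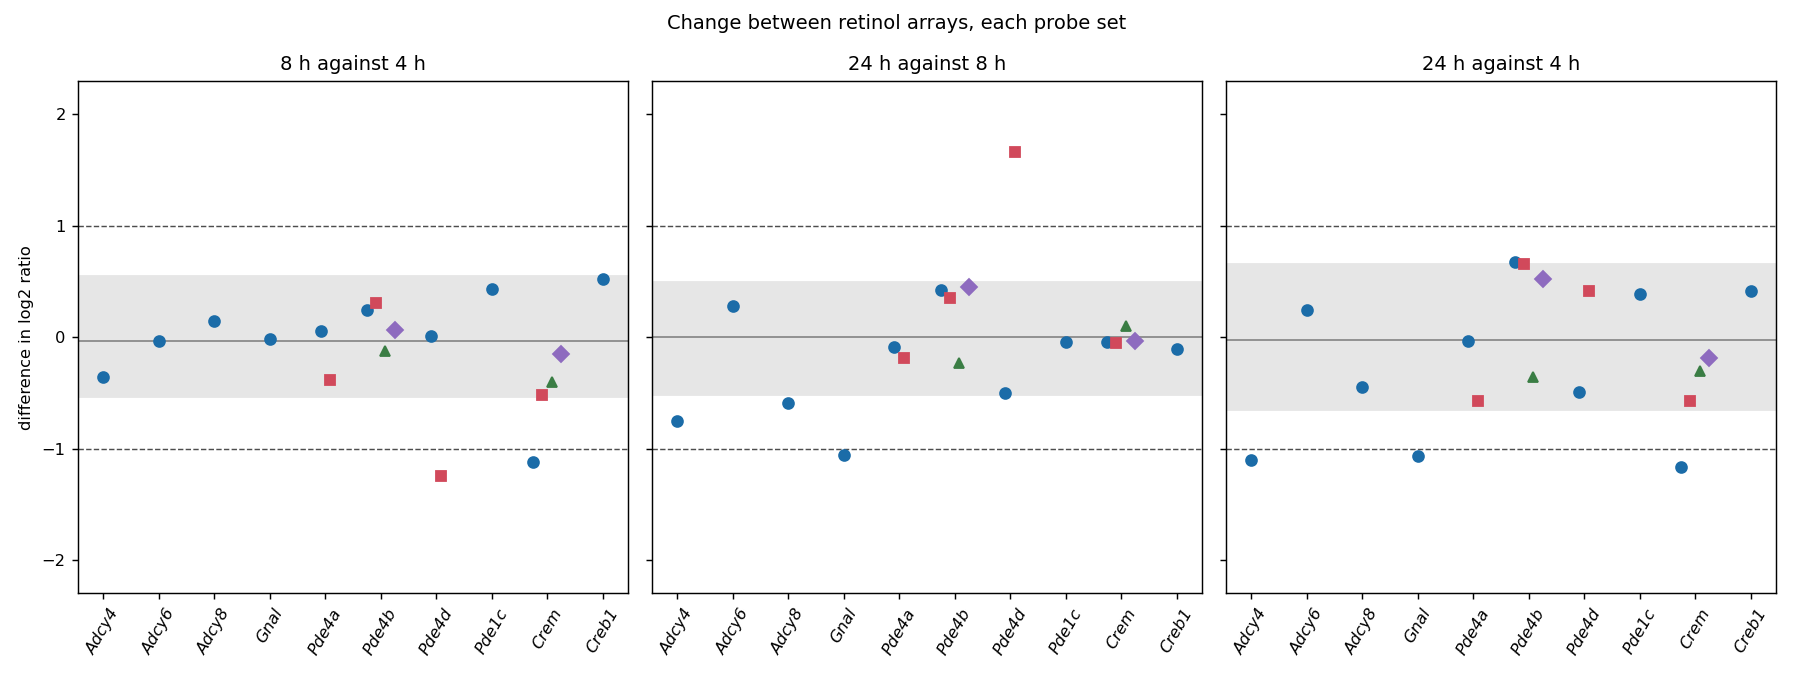
Change in log2 ratio between retinol arrays for each probe set (8 h against 4 h, 24 h against 8 h, 24 h against 4 h). Dashed lines mark 2-fold, the grey line the median and the shaded band the 5th to 95th percentile of all probe sets; all 4 Crem points lie below 0 for 8 h and for 24 h against 4 h, and Pde4d L27060_at is at -1.24 and then 1.66.

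Crem and Creb1 are themselves known to carry cyclic AMP response elements in promoters, so their start regions are shown with the letters of that element. A window of Pde4d is shown because L27060_at had the largest steps of the 18 probe sets from 4 h to 8 h and from 8 h to 24 h. The RefSeq table of start windows (build GRCr8, 250 bases before and 50 after each annotated start) held 19 windows for 8 of the 10 genes, and none for Adcy6 and Adcy8. The full element was searched as TGACGTCA, which is its own reverse complement, and its core as TGACG on both strands; each full element contains the core on both strands. Of all 33469 windows 1.83% held the full element and 21.2% the core. Of the 19 windows 2 held the full element, both of Crem, and 8 held the core. Of the 5 Pde4d windows, the one shown, window 3, held the most core matches, and windows 1, 2 and 5 held none. The 250 bases before 4 of the starts follow, 5′ to 3′ on the strand of the gene (the plus strand in each), with the element or its core in capitals.
Crem, window 2, chr17:58984547-58984796: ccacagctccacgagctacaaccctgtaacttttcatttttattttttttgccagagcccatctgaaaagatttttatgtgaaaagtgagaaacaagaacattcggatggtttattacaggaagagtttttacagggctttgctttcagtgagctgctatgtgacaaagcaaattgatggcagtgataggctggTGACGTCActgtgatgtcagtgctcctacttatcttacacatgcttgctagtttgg
Crem, window 3, chr17:58985240-58985489: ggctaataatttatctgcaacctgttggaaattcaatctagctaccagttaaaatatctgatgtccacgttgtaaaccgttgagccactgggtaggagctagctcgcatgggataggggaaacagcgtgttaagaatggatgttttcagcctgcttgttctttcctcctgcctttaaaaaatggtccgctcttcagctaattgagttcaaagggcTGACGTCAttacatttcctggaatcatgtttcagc
Crem, window 3, the 18 bases at chr17:58985522-58985539, after the start: tgcacatTGACGTCAgct
Creb1, window 1, chr9:73397259-73397508: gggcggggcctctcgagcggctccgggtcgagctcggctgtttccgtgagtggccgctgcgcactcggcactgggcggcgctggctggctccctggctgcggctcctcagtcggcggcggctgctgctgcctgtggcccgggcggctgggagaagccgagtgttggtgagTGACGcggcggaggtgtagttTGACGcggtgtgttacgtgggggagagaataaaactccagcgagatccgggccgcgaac
Pde4d, window 3, chr2:42592499-42592748: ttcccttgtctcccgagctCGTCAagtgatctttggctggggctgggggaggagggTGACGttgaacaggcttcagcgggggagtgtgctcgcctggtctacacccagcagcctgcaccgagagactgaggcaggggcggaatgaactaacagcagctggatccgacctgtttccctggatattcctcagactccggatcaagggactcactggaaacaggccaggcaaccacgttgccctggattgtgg

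In window 2 of Crem the full element spans positions -56 to -49 from the annotated start. Window 3 of Crem holds it at -35 to -28 and again at 40 to 47, after the start. Window 1 of Crem has the core alone, at -241 to -237 and -6 to -2. Creb1 has the core in window 1 at -80 to -76, at -59 to -55 and at 9 to 13 after the start. Pde4d has it in window 3 at -231 to -227 and -194 to -190 and in window 4 at -19 to -15, and Pde4a in windows 1 and 3. The windows of Adcy4, Gnal, Pde4b and Pde1c hold neither.

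The letters of the retinoic acid response element were searched as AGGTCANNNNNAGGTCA and AGGTCANNAGGTCA, direct repeats with 5 and 2 bases between them, on both strands. No window of the 8 genes held either, and 0.009% and 0.012% of all windows did. With only 3 and 4 of 33469 windows matching, 0 of 19 does not show that these genes lack such an element. Variants of these letters were not searched. The single core AGGTCA was in 2 of the 19 windows, window 1 of Pde4a and window 2 of Creb1, and in 16.2% of all windows. A match describes letters only, and the sources used here do not say which start each probe set reads.

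**Figure D4:**
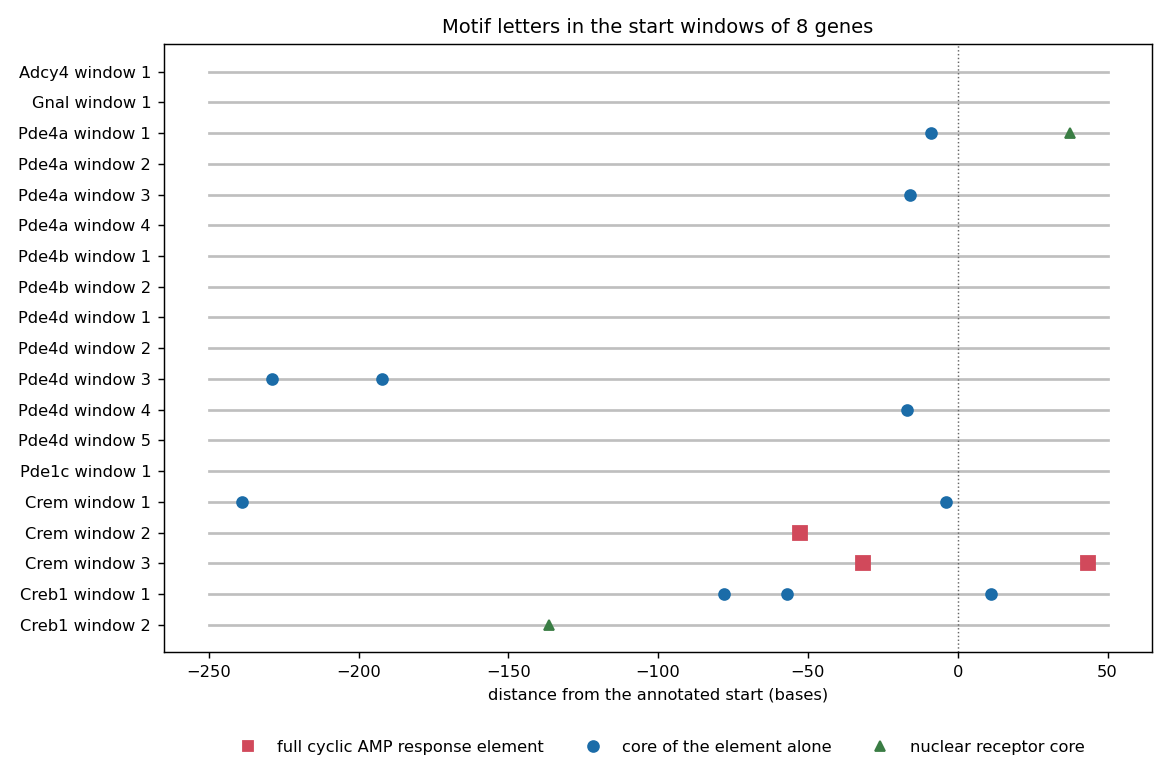
Positions of the motif letters in the 19 start windows of 8 genes, in bases from the annotated start (dotted line), each grey line being 1 window of 300 bases. Squares are the full cyclic AMP response element, found in windows 2 and 3 of Crem, circles its core where it stands alone, and triangles the single nuclear receptor core.

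The rest of the pathway was read from fixed lists. Receptors that couple to Gs were measured for 18 of 20 genes, by 36 probe sets, with medians of 0.23, 0.11 and 0.17. At 4 h 2 of the 36 were at least 2-fold higher (2.21% of all probe sets) and 1 lower (1.58%). At 8 h 1 was higher (4.04%) and 1 lower (2.53%), and at 24 h 1 was higher (4.68%) and 0 lower (3.41%). Lhcgr, the luteinising hormone receptor gene, had 1 such probe set, M63926mRNA_s_at, at 1.03, 1.39 and 0.91. Its other 4 probe sets ran from -0.92 to 0.69 at 24 h. Fshr, the follicle-stimulating hormone receptor gene, had probe sets at 0.72 and 0.26 at 4 h and at 0.14 and 0.16 at 24 h.

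Of the other receptors past 2-fold, the adrenergic receptor gene Adrb1 was at 0.85, 0.40 and 1.21. Drd1, a dopamine receptor gene, was at 1.04, 0.32 and 0.37 with S46131mRNA_r_at, and its other 2 probe sets were at 0.65 and -0.21 at 4 h. Pth1r, the parathyroid hormone receptor gene, was at -1.25, -1.01 and -0.98 with L31394exon_s_at, and its other 2 probe sets were at -0.53 and -0.20 at 4 h.

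Protein kinase A and its anchors were measured for 14 of 22 genes, by 22 probe sets, with medians of 0.13, 0.04 and -0.07. At 4 h 1 was at least 2-fold higher (2.21% of all probe sets) and none lower (1.58%). At 8 h 1 was higher (4.04%) and 1 lower (2.53%), and at 24 h 1 was higher (4.68%) and 1 lower (3.41%). The higher one was U23146cds_s_at of the anchor gene Akap12, at 1.5, 1.48 and 1.38, while U41453_at of the same gene was at 0.44, 0.37 and -0.0032. The lower one was rc_AA893743_g_at of Pkia, a kinase inhibitor gene, at -0.76, -1.03 and -1.21. The other 2 Pkia probe sets were at -0.63 and 0.34 at 24 h. For 8 h against 4 h, 2 of the 22 were at least 2-fold lower (1.04% of all), those of the anchor genes Akap4 and Akap5. Akap4, the anchor of the sperm tail, was at -1.25, with ratios of 1.29, 2.11, 0.889 and 0.920 in the VAD, 4, 8 and 24 h arrays. The same Akap4 probe set is among the spermatid markers above and the genes that need CREM below, so it is no separate evidence. Akap5 was at -1.07, with ratios of 1.21, 2.13, 1.02 and 1.02.

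Other effectors of cyclic nucleotides, exchange factors and channels, were measured for 7 of 11 genes, by 12 probe sets, with medians of 0.12, 0.04 and 0.09. Cnga4, a channel subunit gene of olfactory neurons, was the 1 past 2-fold, at 4 h only (2.21% of all probe sets were higher). It was at 1.07, 0.58 and 0.94 and had a VAD ratio of 1.88. Cnga2, another channel subunit gene of this list, was at 0.17, 0.34 and 0.35. Of 17 other CREB family factors and coactivators 2 were measured, by 3 probe sets. Atf2, a CREB relative, was at 1.49, 1.71 and 1.94 with M65148_s_at and at 0.31, -0.03 and 0.16 with U38938_i_at. The higher value of Atf2 thus rests on 1 of its 2 probe sets.

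Genes that cyclic AMP induces in many tissues were measured for 15 of 20, by 37 probe sets, with medians of 0.05, 0.18 and -0.01. At each time 2 were at least 2-fold higher, both of the phosphatase gene Dusp1. S74351_s_at was at 1.90, 1.89 and 1.96 and U02553cds_s_at at 1.80, 1.92 and 1.47, but S81478_s_at of the same gene was at 0.45, 0.09 and -0.01. Egr1, an immediate early factor gene, had a probe set (AF023087_s_at) at -1.06 at 24 h, the 1 past 2-fold lower (3.41% of all). Its 3 others lay between -0.51 and 0.24. Shares past 2-fold in this list, 2 of 37 higher at each time, stand beside the 2.21%, 4.04% and 4.68% of all probe sets.

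Germ cell genes whose expression is known to need CREM, most of them of haploid cells, were measured for 12 of 15, by 18 probe sets. Their medians against VAD were 0.50, -0.38 and -0.53, and those at 8 h and 24 h turn to 0.12 and 0.09 under spike-in scaling. From 4 h to 8 h the median was -0.64, 15 of 18 were lower and 7 were at least 2-fold lower (1.04% of all probe sets were). From 4 h to 24 h it was -0.60, again with 15 lower and 7 past 2-fold (1.53% of all). Tnp2, of spermatid chromatin, was at 1.87 at 4 h, and 1 of the 3 probe sets of the hyaluronidase gene Spam1, rc_AI639254_at, was at 1.22 at 4 h and -1.44 at 8 h. Odf1, of the sperm tail fibres, was at -1.0 at 24 h, and 1 of 5 probe sets of the sterol enzyme gene Cyp51, rc_AI230255_at, was at -1.12 at 4 h. This list overlaps the spermatid markers and, with Ldhc and Hspa1l, the spermatocyte markers, and it was drawn up with earlier results of these data known. In both steps the 7 probe sets past 2-fold lower are all spermatid or spermatocyte marker probe sets too, so they are no separate evidence. Outside the marker lists, the probe sets of Ace, Cyp51 and Prm3 ran from -0.67 to 0.17 for 8 h against 4 h, none past 2-fold.

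**Figure D5:**
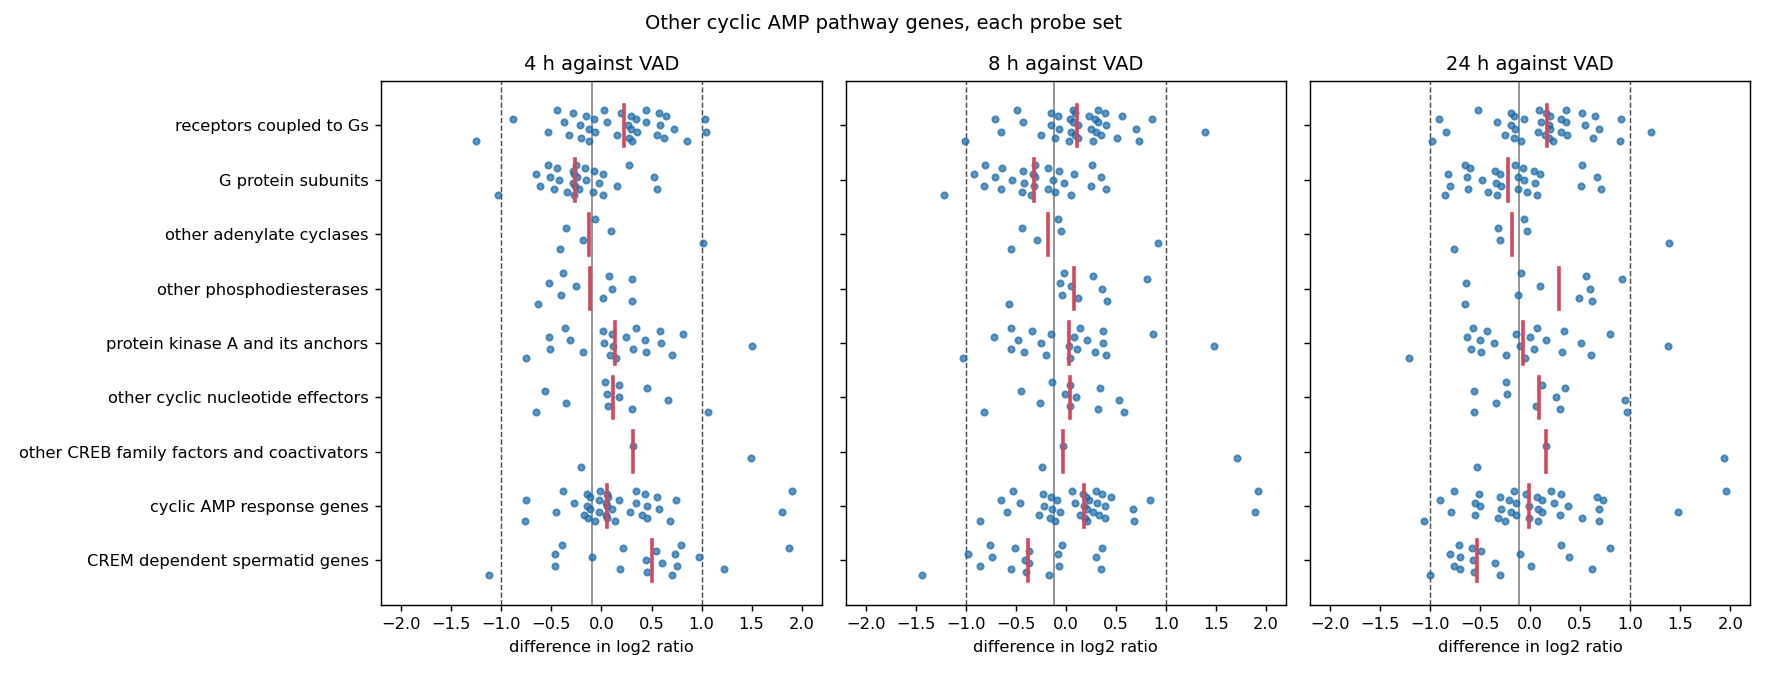
Change in log2 ratio against the VAD array for every probe set of the 9 fixed lists of other pathway genes (points), with each list's median as a red bar, the median of all probe sets as a grey line and 2-fold as dashed lines. The CREM dependent spermatid genes lie at a median of 0.50 (4 h) and -0.53 (24 h), and the G protein subunits lie below the median of all probe sets at all 3 times.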

How the data were processed

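Whole testis RNA was read on the Affymetrix Rat Genome U34 array as complementary RNA (cRNA), with a recorded cRNA input of 10 ug. The submitters' processing notes name GCOS and MAS5 (no version). Per the labels' titles the authors deposited normalised values, and the values show that each is a linear ratio; the sources used here do not give its reference, the scaling or any pooling. All 4 columns were mapped to samples, and 0 per-sample columns were left over. With ratios in place of signals, no floor or filter on level was set.

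Of 8799 probe sets, 59 were Affymetrix controls, 7006 had 1 symbol in the platform annotation, 308 had several and 1426 were not listed. Symbols were updated through Entrez IDs, 6985 of which were in the RefSeq table of GRCr8. Changes were differences in log2 ratio, computed with Python 3.11.15, pandas 2.3.3 and numpy 2.4.6 and drawn with matplotlib 3.10.9. The probe set noise was the SD of the difference between the changes of 2 probe sets of a gene from different sequences, divided by the square root of 2. It leaves out the spread between animals, and the single array per group limits the precision. The script was tested on simulated data.

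Named were all member probe sets, list genes past 2-fold against VAD (otherwise up to 3 with the largest change at 24 h) and the 3 nearest probe sets of other genes to each member past 2-fold. Fshr, Gnas, Akap4, Akap5, Adcy3, Adcy5, Cnga2, Ace, Prm3, Cyp11a1 and Nr5a1 were added after their values were seen. The members and lists were chosen with earlier results of these data known. Alternatives were median centring, spike-in scaling, 1 as reference, a pseudocount of 0.1, a filter on VAD ratios within 10% of 1, a 1.5-fold threshold and the mean over a gene's probe sets.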

Additional observations from a re-analysis of the deposited data

How the results depend on the processing

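The counts of member probe sets past 2-fold were recomputed under 6 other settings. Median centring left 0 lower at 4 h (1.11% of all probe sets were). Spike-in scaling gave 4 higher (12.0% of all) and 0 lower (0.285% of all) at 4 h. At 8 h it gave 2 higher (12.5% of all) and 1 lower (0.428% of all). At 24 h it gave 2 higher (18.1% of all) and 1 lower (0.442% of all). For 24 h against 8 h it gave 0 lower (0.599% of all). With 1 as the reference in place of VAD, 2 were lower at 4 h (2.28% of all). In that setting 1 (Gnal) was higher at 24 h (4.25% of all). With a pseudocount of 0.1, 0 were lower at 4 h (0.914% of all). The pseudocount left 1 lower for 8 h against 4 h (0.671%) and 1 for 24 h against 4 h (0.999%). The filter on VAD ratios left 13 of the 18 probe sets, without Gnal and Crem S66024_at. Then 0 were higher at 4 h (1.02% of all that the filter left) and at 8 h (1.87%). Lower were 1 at 24 h (2.25%) and 1 for 8 h against 4 h (0.402%). For 24 h against 8 h 0 were lower (0.426%), and for 24 h against 4 h 1 was (0.709%). At 1.5-fold, 2 were higher (8.14% of all) and 3 lower (8.02%) at 4 h, and 2 (10.4%) and 5 (14.0%) at 8 h. At that threshold 2 were higher at 24 h (11.6%) and for 24 h against 4 h (6.42%). For 24 h against 8 h 3 were lower (3.83%). The other counts were within 1.5 times their main value.

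Of 15 called values, 13 stayed past 2-fold after centring, 9 after spike-in scaling and 10 with the pseudocount. All 8 against VAD did so with 1 as reference, and all 7 left by the filter did. Both outcomes were fixed in advance. The filter drops probe sets and leaves every change as it was. With 1 as reference these changes could only grow, because the VAD ratio of Gnal was above 1 and those of the others were below 1. Neither setting therefore tests how stable the called values are. Of 9 values of genes with more than 1 probe set, 0 stayed past 2-fold as the mean over the gene. No paired analysis was possible because each group has 1 sample, and no replicate could be left out. Array signal over background is not known from ratios, so dim probe sets cannot be told from bright ones.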
